A study of Mus musculus with 29 samples.

Results

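The genes described here are those that make and load MHC class I peptide complexes: the heavy chain genes H2-K1 and H2-D1, the light chain gene B2m, the loading genes Tap1, Tap2 and Tapbp, the immunoproteasome genes Psmb8, Psmb9 and Psmb10, and the activator gene Nlrc5. These 10 genes were taken by symbol from the 24421 rows of the deposited count table, and all 10 passed the filter on low counts in every comparison. The 29 libraries came from 29 female C57BL/6J mice, given as 5 to 6 weeks old when they were divided into groups. All had received an intraperitoneal injection of YTN16 cells, a mouse gastric cancer line, on day 0. At day 21 there were 5 untreated and 5 dual ICI mice, and day 35 had 3 dual ICI-cured mice (#2, #3 and #4), 2 dual ICI-uncured mice (#1 and #5), 4 anti-CTLA4 mice, 5 anti-PD1 mice and 5 untreated mice. Dual ICI is anti-PD1 at 10 mg/kg together with anti-CTLA4 at 5 mg/kg. Antibodies were given on days 5, 8 and 12, and to day 35 mice also on days 21 and 28, while untreated mice received PBS. Every group therefore carries the tumor cell injection, and no uninjected mice were analysed here. The labels call the samples tumor tissue, whereas the methods describe stripped peritoneum with or without nodules. The labels give treatment and day but no outcome. For most day 21 dual ICI libraries the number in the label differs from that in the column header, whereas at day 35 the numbers are the same. Cured and uncured mice were told apart by the mouse numbers in the study's text, on the assumption that the number in each library's label is that mouse number, so every result split by outcome rests on that match. Values for all 5 dual ICI mice as 1 group, which do not need it, are also given.

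MHC class I molecules show peptides from inside a cell to CD8 T cells. Peptides are cut by the proteasome, carried into the endoplasmic reticulum by the TAP1 and TAP2 transporter, and placed on a heavy chain bound to beta-2 microglobulin with the help of tapasin, the product of Tapbp. Interferon gamma is known to induce most of these genes, including the immunosubunits, which replace the constitutive catalytic subunits encoded by Psmb5, Psmb6 and Psmb7, and NLRC5, which acts on class I promoters. Loss of this machinery is a known route by which tumors escape T cells.

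The promoters of these genes carry shared short motifs, and those of the heavy chains, the light chain and Tap1 are shown because they hold most of these motifs. The window of Psmb9 held the same set of matches as that of Tap1, with which it shares most of its bases, and is not repeated. Each sequence runs from 250 bases before to 50 bases after a RefSeq start site on GRCm38.p6, on the strand of the gene. Capitals mark, on either strand, the interferon regulatory factor core AANNGAAA, the cyclic AMP response element core TGACG, and the CCAAT box, which reads ATTGG on the opposite strand.
H2-K1: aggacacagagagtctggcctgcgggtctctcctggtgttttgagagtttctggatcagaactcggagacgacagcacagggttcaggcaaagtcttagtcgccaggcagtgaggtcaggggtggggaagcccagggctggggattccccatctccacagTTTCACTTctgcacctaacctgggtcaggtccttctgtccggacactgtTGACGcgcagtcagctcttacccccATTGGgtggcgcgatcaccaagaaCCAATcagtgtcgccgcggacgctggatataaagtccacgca
H2-D1: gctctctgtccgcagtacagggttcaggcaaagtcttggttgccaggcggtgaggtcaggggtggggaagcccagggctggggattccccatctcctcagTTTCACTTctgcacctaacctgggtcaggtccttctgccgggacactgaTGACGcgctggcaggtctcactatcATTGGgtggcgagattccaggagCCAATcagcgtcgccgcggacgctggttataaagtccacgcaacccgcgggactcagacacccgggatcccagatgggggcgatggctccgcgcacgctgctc
B2m: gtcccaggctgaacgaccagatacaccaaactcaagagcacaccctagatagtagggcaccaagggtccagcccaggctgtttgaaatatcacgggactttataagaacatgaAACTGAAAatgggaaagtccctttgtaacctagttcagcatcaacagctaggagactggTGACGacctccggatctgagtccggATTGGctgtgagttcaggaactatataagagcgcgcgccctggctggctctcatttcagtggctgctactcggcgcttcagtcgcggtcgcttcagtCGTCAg
Tap1: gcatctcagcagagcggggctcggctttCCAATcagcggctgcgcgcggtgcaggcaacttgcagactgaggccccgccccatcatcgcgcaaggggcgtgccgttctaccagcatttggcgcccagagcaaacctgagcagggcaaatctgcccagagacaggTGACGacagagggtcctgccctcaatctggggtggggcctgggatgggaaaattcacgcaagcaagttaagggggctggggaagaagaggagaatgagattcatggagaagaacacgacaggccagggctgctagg
These windows lie at chr17:34000298-34000597 on the minus strand for H2-K1, at chr17:35262844-35263143 on the plus strand for H2-D1, at chr2:122147437-122147736 on the plus strand for B2m and at chr17:34187306-34187605 on the plus strand for Tap1. RefSeq windows were found for 8 of the 10 genes, all but Tap2 and Nlrc5, and the first listed window was used for H2-K1.

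AANNGAAA was found in 3 of the 8 member windows (H2-K1, H2-D1 and B2m) and in 24.2% of all 27025 promoter windows of the same length. TGACG was found in 5 of 8 and in 21% of all, and CCAAT in 6 of 8 and in 37.9% of all. TTCNNNGAA, the core of the gamma-activated site, was found in 1 of 8 (Psmb8) and in 8.47% of all, and the loose kappa B pattern GGGNNNNNCC in 5 of 8 and in 50.4% of all. In H2-K1, H2-D1 and B2m alike, TGACG began 25 bases before the inverted CCAAT box. That spaced pair, read after the spacing was seen, was present in 26 of the 27025 windows (0.0962%), 3 of them these members. AANNGAAA began 49 bases before TGACG in both heavy chain genes and 59 bases before it in B2m. Psmb10 held none of these 5 patterns in its window. The 8 windows are not independent. Tap1 and Psmb9 share most of theirs, so the same sites count for both genes. H2-K1 and H2-D1 belong to a family of near-identical genes, so their matches are not separate cases. A match is a description of letters and does not show that a factor binds there.

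**Figure D1:**
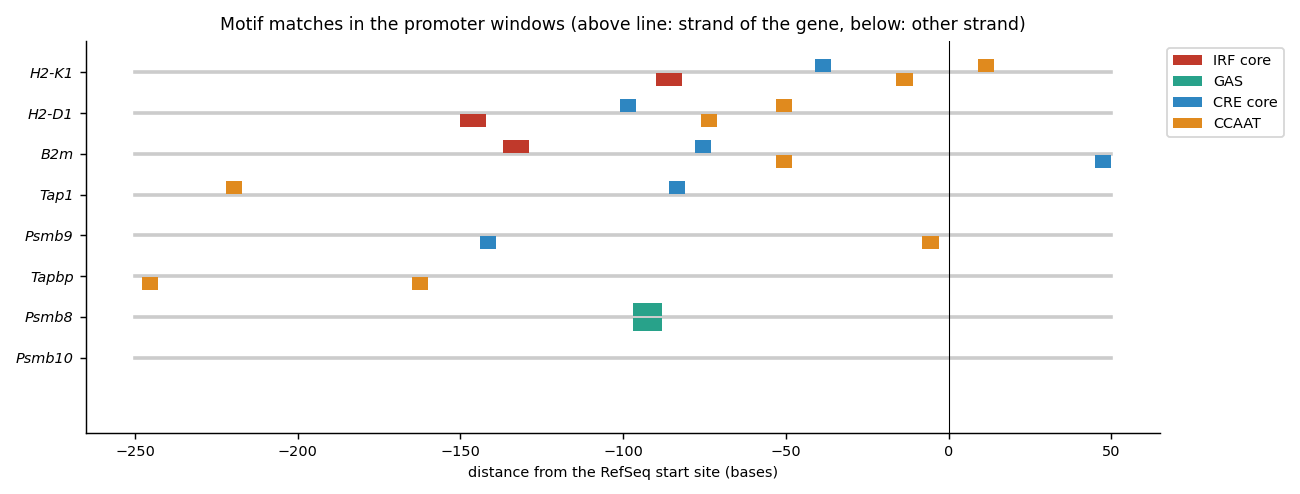
Motif matches in the 8 promoter windows, plotted as distance in bases from the RefSeq start site, with 1 row per gene and boxes above or below the line for the strand of the gene or the other strand. The TGACG and inverted CCAAT boxes stand 25 bases apart, start to start, in H2-K1, H2-D1 and B2m.

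Psmb9, Tap1, Psmb8 and Tap2 are neighbours on chromosome 17, and Psmb9 and Tap1 are read in opposite directions from one promoter region. Their start sites lie 226 bases apart, and their windows share 275 of 300 bases. On GENCODE vM21, which is on GRCm38, Psmb9 spans chr17:34181987-34187764, Tap1 chr17:34187553-34197225, Psmb8 chr17:34197721-34201454 and Tap2 chr17:34203527-34216321. The annotated ends of Psmb9 and Tap1 overlap on opposite strands. B2m overlaps Patl2 on the opposite strand, Tapbp overlaps Zbtb22 on the same strand, and Tap2, Psmb8, Psmb10 and Nlrc5 overlap annotated noncoding genes. Whether reads were counted by strand is not given in the sources used here, so reads from these overlaps cannot be assigned with certainty. H2-K1 and H2-D1 overlap no annotated gene but belong to a family of near-identical genes, so reads shared within that family cannot be assigned with certainty either. B2m is on chromosome 2, and Psmb10 and Nlrc5 are on chromosome 8.

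Library totals lay between 25989217 and 31219650 counts, and every member had at least 200 counts in every library, so counting error is small beside the spread between mice. Skeletal muscle markers, summed over 28 genes, took 5.04% to 26.9% of the counts of a library. Gastric epithelium markers, summed over 20 genes, took 0.0013% to 0.463%. The 3 cured mice had muscle at 25.2% to 26.9% and gastric epithelium at 0.0013% to 0.005%. Untreated day 35 mouse 2 was near them in muscle only, at 24.1%, with gastric epithelium at 0.0788%. Anti-PD1 mouse 5 was near them in both, with muscle at 25% and gastric epithelium at 0.0036%. One of the anti-PD1 mice was cured in the study, but which one is not given in the sources used here. In cured mice Epcam, an epithelial surface gene, lay between 0.339 and 5.38 CPM, against 114 to 451 CPM in untreated day 35 mice, so the epithelial part of the labelled tissue was near 0 there. In bulk tissue, fewer cells of a type and less RNA per cell cannot be told apart, which applies to every level given here. CPM is the count per 1000000 counts of the TMM-scaled library.

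Levels between genes were compared per kilobase of annotated exon, which understates genes with long rare transcripts. In untreated day 21 mice (n = 5), B2m was highest at 849 ± 152 CPM per kb (SD), followed by H2-K1 at 293 ± 66.9 and H2-D1 at 108 ± 18.1. Tapbp followed at 74.9 ± 14.9 CPM per kb and Psmb10 at 28.6 ± 4.37. Tap2 at 17.2 ± 2.87 and Psmb8 at 16.8 ± 3.61 CPM per kb did not differ beyond their SD. Tap1 at 11.7 ± 2.81, Psmb9 at 6.92 ± 1.09 and Nlrc5 at 4.73 ± 1.52 CPM per kb closed the order. Nlrc5 varied most over the 29 mice, 7.62-fold from lowest to highest CPM, and Tap2 least, 2.69-fold. The lowest mouse was a cured mouse for all 10 genes.

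**Figure D2:**
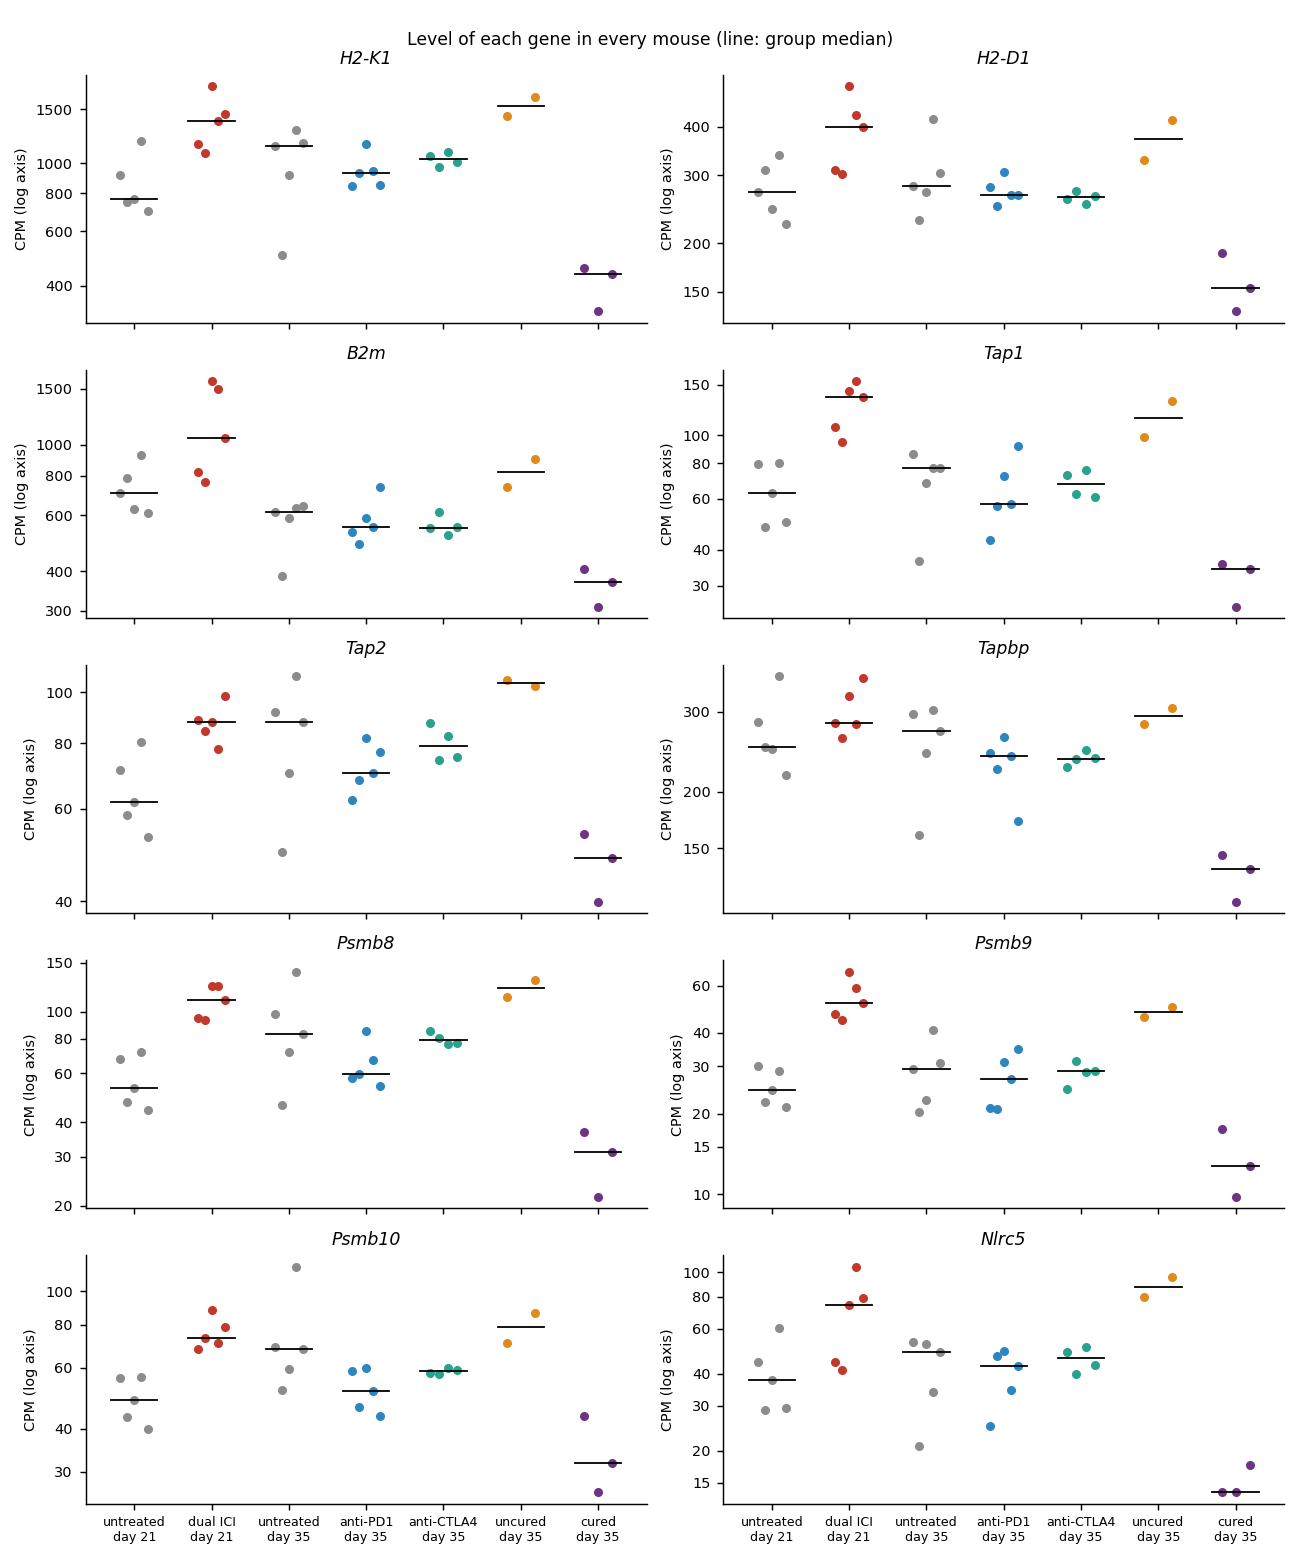
Level of each of the 10 genes in every mouse as CPM on a log axis, with 1 point per mouse, 7 groups and a line at the group median. The lowest point in every panel is a cured mouse, and dual ICI mice at day 21 lie above untreated mice of the same day for Tap1, Psmb8, Psmb9 and Psmb10.

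At day 21, which asks what dual ICI does while tumors are still present, 4 members rose: the immunosubunits Psmb9, Psmb8 and Psmb10, and the transporter gene Tap1. The 4 of 10 called stood against 89 of 15503 genes tested (0.574%), or 73 (0.471%) counting higher calls only. The members were chosen with earlier results of these data known, so these shares are a description and not a test. All 10 members had a positive log2 fold change, with a median of 0.67 beside 0.02 for all genes tested, and 9 of 10 had an unadjusted p under 0.05 (10.7% of all genes). Tests were edgeR's quasi-likelihood test, with p-values adjusted by Benjamini-Hochberg over every gene in the fit.

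Psmb9, the beta-1i immunosubunit, was at 30.1, 22.1, 24.4, 28.9 and 21.2 CPM in untreated mice 1 to 5 and at 47.3, 44.8, 67.8, 59 and 52 CPM in dual ICI mice 1 to 5. Every dual ICI mouse was above every untreated mouse, and the 2.15-fold difference (log2 1.10 ± 0.15 SE) had an adjusted p of 0.012. Psmb8, the beta-5i immunosubunit, was at 67.4, 47.3, 53, 71.6 and 44.2 CPM in untreated and 95.1, 93.4, 124, 124 and 110 CPM in dual ICI mice. The groups again did not overlap, and the difference was 1.94-fold (log2 0.95 ± 0.16, adjusted p = 0.026). Tap1, a TAP transporter subunit, was at 79.4, 48, 62.7, 80.1 and 50.1 CPM in untreated and 107, 94.6, 142, 154 and 135 CPM in dual ICI mice, which was 1.99-fold (log2 0.99 ± 0.19, adjusted p = 0.0444). Psmb10, the beta-2i immunosubunit, was at 56.1, 43.2, 48.5, 56.4 and 40 CPM against 68.2, 73.4, 88.4, 70.8 and 79 CPM, which was 1.56-fold (log2 0.64 ± 0.12, adjusted p = 0.0444). Groups did not overlap for these 4 members and for 284 of 15503 genes in the same direction (1.83%).

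The other 6 members did not pass the test at day 21. H2-K1 ranged from 700 to 1183 CPM in untreated and from 1078 to 1786 CPM in dual ICI mice (log2 0.67 ± 0.20, adjusted p = 0.196). B2m ranged from 609 to 929 CPM in untreated and from 764 to 1588 CPM in dual ICI mice (log2 0.66 ± 0.24, adjusted p = 0.317), with dual ICI mice 1 and 2 inside the untreated range. Nlrc5 was at 44.5, 29, 37.9, 60.3 and 29.4 CPM in untreated and 44.4, 41.5, 74.6, 105 and 79.2 CPM in dual ICI mice (log2 0.79 ± 0.28, adjusted p = 0.313). Dual ICI mice 1 and 2 were again within the untreated range. H2-D1 (log2 0.50 ± 0.18), Tap2 (0.44 ± 0.12) and Tapbp (0.16 ± 0.15) had the smallest differences. By DESeq2, which called 502 of 16509 genes (3.04%), H2-K1 and Tap2 also passed, which made 6 members.

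Dual ICI mice 1 and 2 at day 21 also had the least gastric epithelium marker RNA of their group, with 854 and 804 CPM against 1614, 2785 and 1880 CPM in mice 3, 4 and 5, and the most muscle, at 22.5% and 19.6% of counts against 8.46% to 14.3%. Between the groups these sums overlapped, with gastric epithelium at 757 to 2274 CPM in untreated and 804 to 2785 CPM in dual ICI mice. T cell markers, summed over 8 genes, did not overlap, at 19.5 to 32.7 CPM in untreated and 39.2 to 62.6 CPM in dual ICI mice, and neither did CD8 T cell markers (2 genes), at 1.94 to 5.57 and 11.3 to 32 CPM. Macrophage markers (12 genes) overlapped, at 1780 to 2259 and 2215 to 3754 CPM, with medians of 1830 and 2957 CPM. Ptprc, the pan-leukocyte gene, overlapped at 66.5 to 92.6 and 80.4 to 165 CPM (log2 0.65 ± 0.19, adjusted p = 0.188). That difference was near the members' median of 0.67. The part of these markers in the result was not tested. Psmb9 passed in 9 of 10 fits that each left out 1 mouse. The count of members called fell to 1 without untreated mouse 1, 2 or 3, to 2 without untreated mouse 4 and to 0 without untreated mouse 5. It was 1 without dual ICI mouse 3 or 5 and 2 without dual ICI mouse 4.

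**Figure D3:**
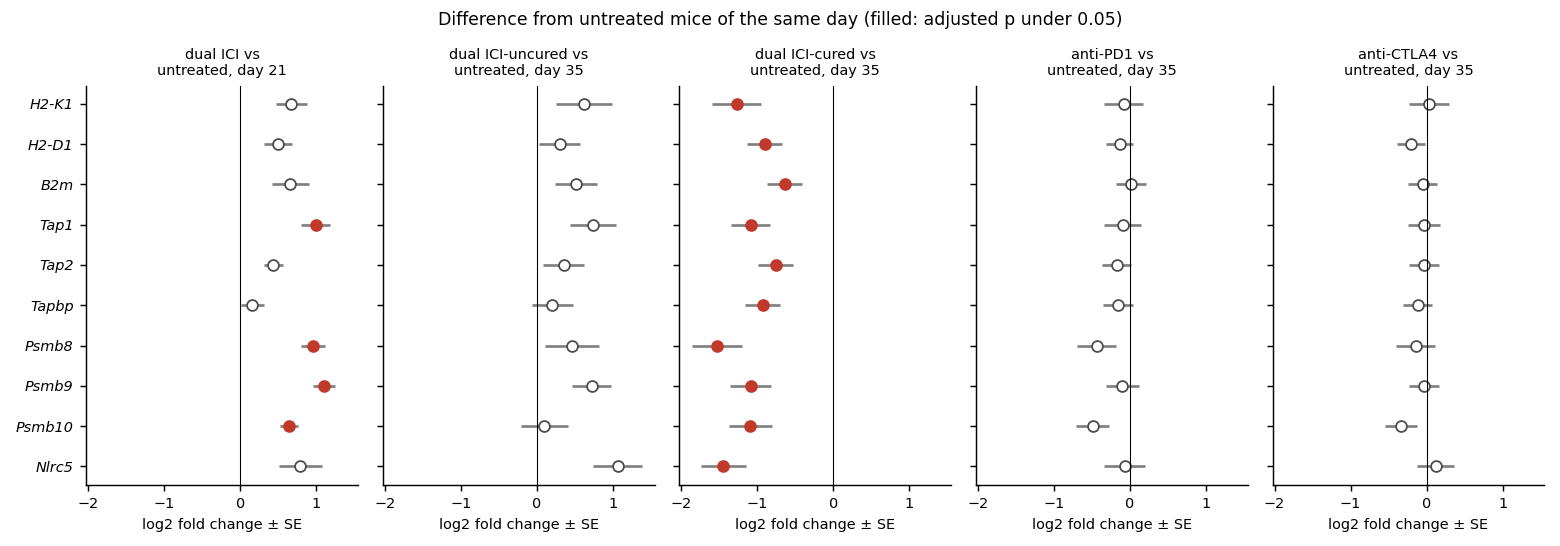
Log2 fold change with SE of the 10 genes in 5 comparisons with untreated mice of the same day, filled where the adjusted p was under 0.05. At day 21, 4 points are filled, all above 0, and in cured mice all 10 are filled and below 0.

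At day 35 all comparisons with untreated mice share the same 5 untreated mice. In the 2 uncured mice, which ask what tumors that persist under dual ICI look like, 0 of 10 members and 0 of 16156 genes passed the test (0%). At an unadjusted p under 0.05 there were 3 members (Nlrc5, Psmb9 and Tap1) and 787 genes (4.87%), and DESeq2 called 17 genes, of which 0 were members. Nlrc5 was at 80.2 and 95.3 CPM in uncured mice and at 53.3, 20.9, 52.2, 33.8 and 48.7 CPM in untreated mice (log2 1.07 ± 0.32, adjusted p = 0.734). Psmb9 was at 45.8 and 50 CPM against 29.4, 20.3, 22.5, 41 and 31 CPM (log2 0.72 ± 0.26, adjusted p = 0.734). Tap1 was at 98.4 and 132 CPM against 86, 36.5, 68.1, 76.8 and 76.6 CPM (log2 0.74 ± 0.30, adjusted p = 0.734). Both uncured mice were above all untreated mice for 5 members (H2-K1, B2m, Tap1, Psmb9 and Nlrc5), beside 9.22% of all genes. Of the 14 marker lists, 6 had sums in both uncured mice above those of all untreated mice. T cell markers were at 39.8 and 41.1 CPM against 15.6 to 26 CPM, CD8 T cell markers at 11.6 and 13 against 3.09 to 5.69 CPM, and NK cell markers at 9.47 and 12 against 3.94 to 6.54 CPM. Dendritic cell markers were at 47.1 and 47.5 against 24.7 to 39.1 CPM, Ptprc, the pan-leukocyte gene, at 77.8 and 86.9 against 27 to 67.9 CPM, and gastric epithelium markers at 3328 and 3782 against 996 to 3125 CPM. Their part in these differences was not tested.

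Psmb10 showed the smallest difference in uncured mice, 70.7 and 86.6 CPM against 69, 51.7, 59.7, 118 and 67.8 CPM (log2 0.10 ± 0.31). Untreated mouse 4 was the highest of all 29 mice for Psmb10, Psmb8 (139 CPM) and Tap2 (107 CPM), while its Nlrc5 (33.8 CPM) was the second lowest of its group. The effect of dual ICI at day 21 minus that of the uncured mice at day 35 ranged over the members from -0.29 for Nlrc5 to 0.54 for Psmb10 (log2), and 0 of 10 members and 0 of 16542 genes passed the interaction test (0%). At an unadjusted p under 0.05 that test held 1050 genes and 0 members, and DESeq2 called 1 gene and 0 members. The column headers of day 21 and day 35 libraries carry separate series of identifiers, so day cannot be told apart from differences between these series. The day 21 dual ICI mice were not chosen by outcome, whereas the day 35 side holds only uncured mice. Day and outcome therefore cannot be told apart in this contrast either.

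In the 3 cured mice all 10 members were lower than in untreated mice, by 0.64 (B2m) to 1.53 (Psmb8) on the log2 scale. This stood against 7067 of 15816 genes called (44.7%), 4219 of them lower (26.7%). The median over members was -1.09, beside -0.05 for all genes tested. Psmb8 was at 36.8, 21.5 and 31.1 CPM in cured mice 2, 3 and 4, against 98.1, 46.2, 71.6, 139 and 83.2 CPM in untreated mice (log2 -1.53 ± 0.33, adjusted p = 0.00548). Nlrc5 was at 13.8, 13.8 and 17.6 CPM (log2 -1.45 ± 0.30, adjusted p = 0.00427). H2-K1 was at 456, 329 and 435 CPM, against 1134, 503, 915, 1284 and 1165 CPM (log2 -1.27 ± 0.32, adjusted p = 0.0113). All cured mice were below all untreated mice for 8 members, and for 26.9% of genes. B2m and Tap2 were the exceptions, where untreated mouse 2 (386 and 49.6 CPM) lay within the range of the cured mice.

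These lower levels came with the gastric epithelium sum near 0 and the muscle share at its highest, as given above. Leaving the skeletal muscle genes out of the fit kept all 10 calls. That fit drops only the listed genes and keeps all other RNA from muscle tissue, so it cannot show the part of muscle. Of the 8 fits that each left out 1 mouse, the one without untreated mouse 2 kept all 10, and the other 7 lost at least 1. B2m passed in 1 of these 8 fits and Tap2 in 2, whereas Tap1, Psmb8, Psmb9 and Nlrc5 passed in all 8. Without cured mouse 3 the count was 4 and without cured mouse 4 it was 6. Of 14 marker lists, 5 had sums in the cured mice below those of all untreated day 35 mice: gastric epithelium, mesothelium (55 to 221 against 492.7 to 1658 CPM), neutrophils (33.2 to 43.9 against 47.2 to 131 CPM), dendritic cells (20 to 24.4 against 24.7 to 39.1 CPM) and NK cells (2.66 to 3.79 against 3.94 to 6.54 CPM). The muscle sum lay above. The summed T cell markers overlapped, at 15.9 to 18.6 CPM in cured and 15.6 to 26 CPM in untreated mice, but 5 of the 8 genes were lower: Cd3d (log2 -1.57), Cd3e (-1.22), Cd3g (-1.11), Cd5 (-1.58) and Lck (-1.27). In that list Cd28 was higher (log2 1.72). Ptprc was at 37.5 to 47.1 CPM in cured and 27 to 67.9 CPM in untreated mice, which overlapped. The part of these cell types in the lower member levels was not tested.

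Between the uncured and the cured mice all 10 members differed, higher in uncured mice by 1.11 (Tap2) to 2.52 (Nlrc5) on the log2 scale. In that comparison 11063 of 15796 genes passed (70%), 5831 of them higher (36.9%), so a call alone said little about a gene. Nlrc5 was 5.72-fold higher (log2 2.52 ± 0.14, adjusted p = 1.32e-06), Psmb8 4-fold (2.00 ± 0.19, adjusted p = 2.06e-05) and H2-K1 3.72-fold (1.89 ± 0.15, adjusted p = 8.09e-06). With all 5 dual ICI mice as 1 group, 0 of 10 members and 0 of 15588 genes passed against untreated mice (0%), with 1071 genes and 0 members at an unadjusted p under 0.05, and DESeq2 called 46 genes and 0 members.

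Neither antibody alone moved a member past the test at day 35. After anti-PD1, 0 of 15640 genes passed (0%), with 205 genes and 1 member (Psmb10, log2 -0.49 ± 0.21) at an unadjusted p under 0.05. After anti-CTLA4, 0 of 15781 genes passed (0%), with 128 genes and 0 members at an unadjusted p under 0.05. DESeq2 also called 0 genes in both. The 95% intervals of the members' log2 differences reached from -1.01 (Psmb8) to 0.52 (Nlrc5) after anti-PD1 and from -0.81 (Psmb10) to 0.66 (Nlrc5) after anti-CTLA4. Anti-PD1 mouse 5 had the lowest Tapbp (172 CPM) and the highest Tap1 (91.6 CPM), Psmb9 (34.9 CPM) and B2m (735 CPM) of its group. In the 4 anti-CTLA4 mice, Psmb10 lay between 57.4 and 59.9 CPM.

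The balance of immunosubunits to the constitutive subunits they replace was read as a count ratio within each mouse, which does not depend on library scaling. For Psmb8 to Psmb5, the chymotrypsin-like pair, the ratio was 1.89 and 1.98 in the uncured mice, 0.404 to 1.4 in untreated day 35 mice and 0.215 to 0.302 in cured mice. For Psmb9 to Psmb6 it was 0.568 and 0.588 in uncured, 0.137 to 0.351 in untreated and 0.0733 to 0.0969 in cured mice. Psmb10 to Psmb7 followed the same order, at 0.752 and 0.839, 0.224 to 0.617 and 0.121 to 0.169. For all 3 pairs the uncured mice lay above and the cured mice below every untreated day 35 mouse. A ratio in bulk tissue can still depend on the mix of tissues. Untreated day 35 mouse 2, rich in muscle, had the lowest ratio of its group for all 3 pairs. Anti-PD1 mouse 5, also rich in muscle, was lowest of its group for all but Psmb9 to Psmb6. The part of tissue mix was not tested.

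None of the 15 ratio tests passed after adjustment, with adjusted p of 0.179 or more (exact two-sided permutation tests, Benjamini-Hochberg over 15 tests). The uncured comparison (2 against 5) gave p = 0.0952 for each pair and the cured comparison (3 against 5) gave p = 0.0357, which are the smallest p these exact tests allow. At day 21 the ratios overlapped, and Psmb8 to Psmb5 was 1.7-fold higher in dual ICI mice (exact permutation p = 0.0794, adjusted p = 0.179). There Psmb5, Psmb6 and Psmb7 themselves did not pass the test (log2 0.28 ± 0.24, 0.38 ± 0.24 and 0.24 ± 0.22). In the uncured mice the 3 constitutive genes had negative differences (log2 -0.62 ± 0.32, -0.58 ± 0.35 and -0.78 ± 0.36), none of which passed.

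**Figure D4:**
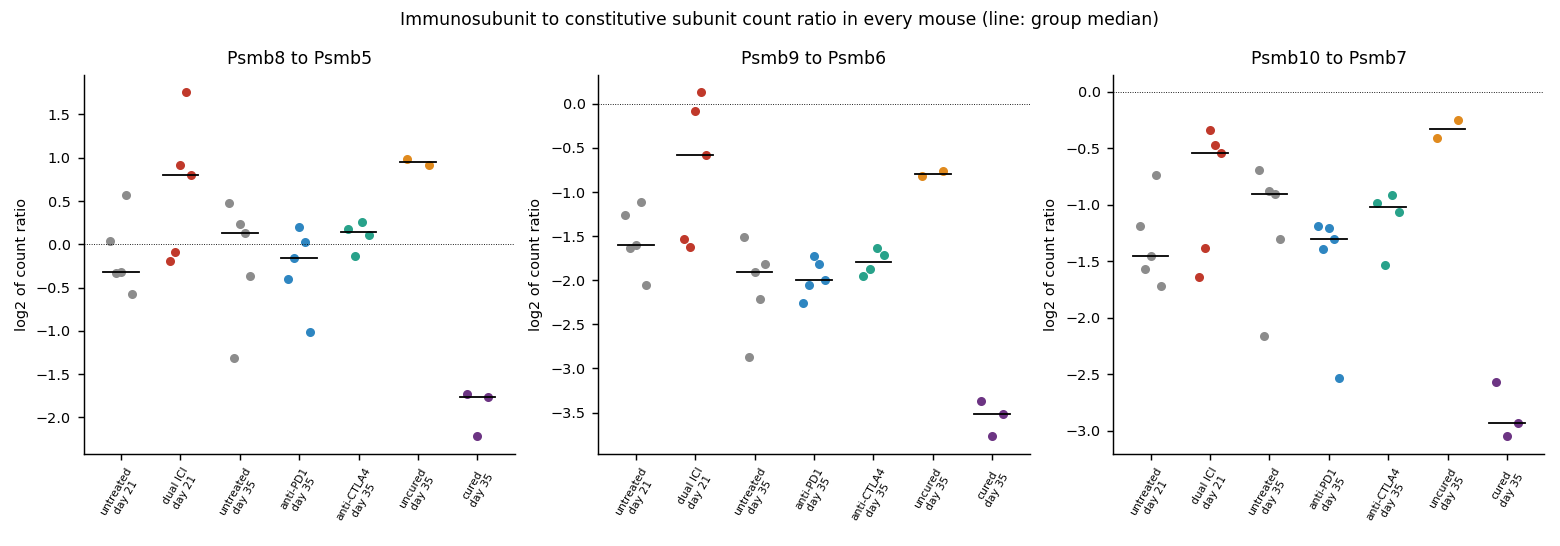
Log2 of the count ratio of each immunosubunit to its constitutive counterpart, with 1 point per mouse, 7 groups and a line at the group median. At day 35 the 2 uncured mice are above and the 3 cured mice below all 5 untreated mice in each panel.

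The wider pathway was read from lists written for this work. The lists were made with earlier results of these data known, so their shares are a description and not a test. Of the pathway's 71 genes that are not members, 66 were tested at day 21 and 10 rose, beside 0.471% of all genes tested, with 0 lower. These were the class II genes H2-Aa, H2-Ab1, H2-Eb1, H2-DMa, H2-DMb1 and H2-DMb2, the nonclassical class I genes H2-Q2, H2-Q4 and H2-M3, and Irf8, an interferon-induced transcription factor. Of the 11 genes of the class II list, these 6 rose by 0.76 (H2-DMb1) to 1.42 (H2-DMb2) on the log2 scale. H2-Q2 was higher by 1.64 ± 0.27, H2-Q4 by 0.75 ± 0.14, H2-M3 by 0.69 ± 0.13 and Irf8 by 0.99 ± 0.17. In the interferon gamma list, 1 of 22 genes was called, and its median was 0.09.

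Ifng, which encodes interferon gamma, had 20 to 81 counts in dual ICI mice at day 21 and 2 to 12 in untreated mice, with no overlap, but did not pass (log2 2.20 ± 0.44, adjusted p = 0.0539). Irf1 (log2 0.72 ± 0.20), an interferon-response factor, and Ciita (0.79 ± 0.21), the class II activator, did not pass either. In uncured mice 0 of 67 non-member pathway genes passed, with Ciita at log2 1.12 ± 0.26, Irf1 at 0.54 ± 0.25 and Ifng at 1.37 ± 0.83. All 14 constitutive core genes had negative differences in uncured mice (median -0.57) and positive ones at day 21 (median 0.28), with 0 of 14 called in either. In cured mice 23 of 65 non-member genes were lower, where 26.7% of all genes tested were, and 5 were higher, where 18% of all genes were. The lower ones included Tapbpl (log2 -1.48), Pdia3 (-1.14), Irf1 (-1.09), Irf8 (-1.12) and Ctss (-2.15), and the 5 higher ones were H2-T24, Cd1d1, Mr1, Jak1 and Nfyc.

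**Figure D5:**
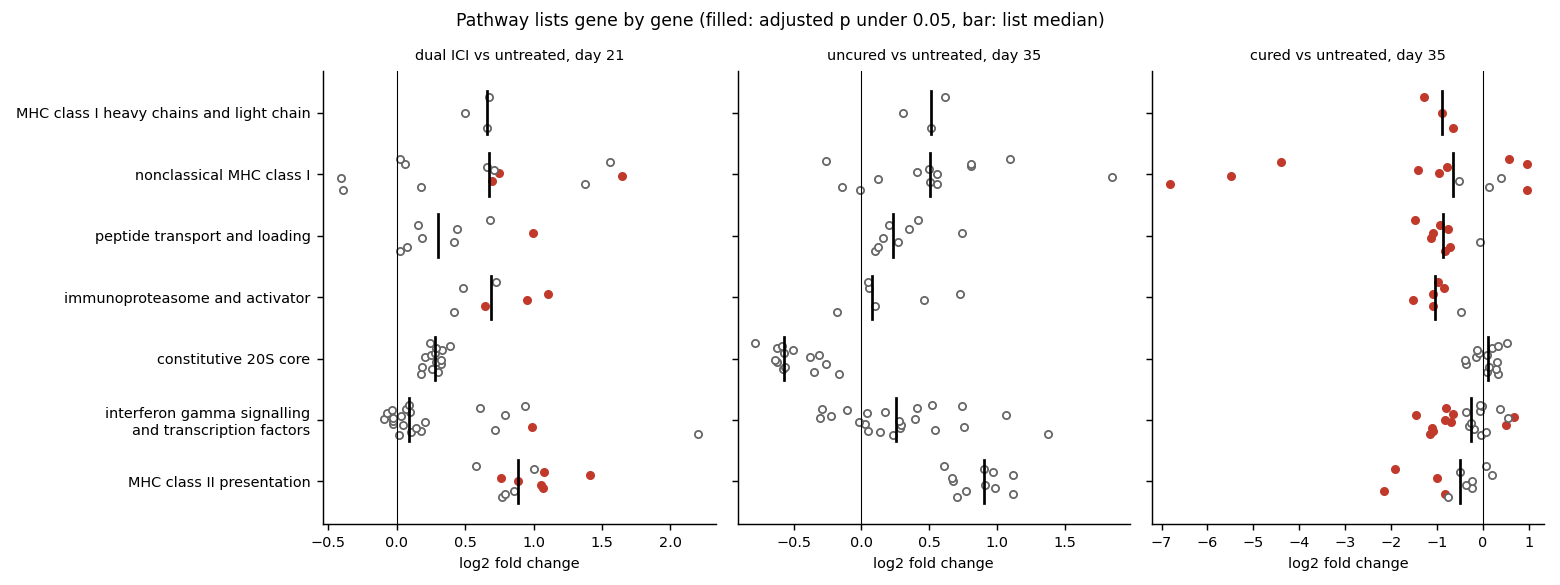
Log2 fold changes of the genes of 7 pathway lists in 3 comparisons with untreated mice, 1 point per gene, filled where the adjusted p was under 0.05, with a bar at the list median and a different x scale in each panel. The constitutive core genes lie below 0 in uncured mice while the class I, loading and class II lists have medians above 0.

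The members varied together among mice of 1 group. In log2 CPM centred on the group means, the 45 pairs of members had correlations from 0.19 (Psmb10 with Nlrc5) to 0.90 (H2-K1 with Psmb8). The median was 0.72 over 29 mice. Tissue makeup also varied within groups, with muscle at 7.26% to 24.1% of counts in untreated day 35 mice, and its part was not tested. Nlrc5 was the member least like the others (mean 0.54) and H2-K1 the most (mean 0.79). The 5 non-member genes most like the members, of 16554 genes, were Ifi47 (mean 0.75), H2-Q4 (0.75), Irf1 (0.73), H2-T23 (0.72) and Batf2 (0.71). Cd8a, a CD8 T cell gene, ranked 142 (mean 0.54), Ptprc 1868 (0.36) and Ifng 2848 (0.32), and Psmb7 had a negative mean of -0.27. These are descriptions with no test.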

How the data were processed

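The authors sequenced paired-end reads of total RNA and deposited a table of raw counts per gene symbol and library, without normalization. Alignment was to mm10; the labels' processing notes name STAR 2.7.0f and featureCounts 1.6.4, whereas the study's methods name HTSeq for counting. Strand setting and annotation are not given in the sources used here. All 29 mice of 7 groups were used, 0 columns were left out, and no 2 libraries were identical.

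Log2 fold changes came from edgeR 4.0.16 in R 4.3.3 (TMM, filterByExpr, glmQLFit, glmQLFTest, adjusted p under 0.05), with only the groups compared in each fit. Groups follow the labels, with outcome from the study's mouse numbers. Each library is 1 mouse, so error holds biological and handling differences together. Alternatives were DESeq2 1.42.0, upper-quartile scaling, no filter, at least 10 counts in every library, a fit of all 29 mice, leaving out muscle genes, the replicate number as a block, and each mouse left out. Intervals used the SE and the t quantile on the degrees of freedom of the fit. Ratios were tested by exact permutation in Python 3.11.15, with a prior count of 2 or the median of the other core subunits as alternatives. Likeness used log2(CPM + 0.5).

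The members, pathway lists and named genes were chosen with earlier results of these data known. Named genes were all members everywhere, Psmb5, Psmb6, Psmb7, Ifng, Irf1 and Ciita at day 21 and in uncured mice, other pathway genes with an adjusted p under 0.05, and the 5 non-members most like the members. For cured mice, where many passed, only examples are named. One gene that the rule names is not reported here. On simulated counts with 200 genes changed 4-fold in either direction, edgeR recovered 98% in the day 21 design, 84.5% in the uncured and 91.5% in the cured design. The spread was taken from untreated mice only. All members differed from untreated mice by less than 4-fold, and smaller changes were not simulated. These rates therefore do not say how often changes of the members' size would be found.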

Additional observations from a re-analysis of the deposited data

Results flagged for a closer look

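Of 50 tests of a single mouse against its group (10 genes in the 5 groups of 4 or 5 mice), 2 singled out a mouse by Dixon's criterion at 95% (4%), and chance alone gives about 1 in 20. B2m in untreated day 35 mouse 2 was at 386 CPM, below the 588 to 642 CPM of the other 4 mice. Psmb10 in untreated day 35 mouse 4 was at 118 CPM, above the 51.7 to 69 CPM of the other 4.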

How the results depend on the processing

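The counts of members called were within 1.5 times the main count under all alternatives run for the comparisons at day 35 and the interaction, except for cured mice. At day 21 the 4 members called became 2 under upper-quartile scaling, and 0 to 4 with 1 mouse left out. The 10 in cured mice became 4 with the replicate number as a block, and 4 to 10 with 1 mouse left out. The block gave 3 at day 21. Same-numbered mice deviated together with r from -0.37 to 0.66 at day 21, where 2 of 5 treated mice correlated best with their own number. At day 35, r ran from -0.17 to 0.22 for cured mice (1 of 3 best) and from -0.48 to 0.79 for all 5 dual ICI mice (2 of 5). It ran from -0.080 to 0.72 after anti-CTLA4 (2 of 4) and from -0.72 to 0.45 after anti-PD1 (0 of 5). Whether the numbers pair the mice was not settled by these values. No block fit could be made between uncured and cured mice, which share no number. Over all genes, the 89 calls at day 21 became 502 with DESeq2, 209 with the block and 6 to 119 with 1 mouse left out. The 7067 calls in cured mice became 4016 with the block and 4491 to 9388 with 1 mouse left out.

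Signs turned only for results that did not pass the test. With the block, after anti-CTLA4, B2m became 0.0083, Psmb9 0.030, Tap1 0.064 and Tap2 0.038. With the block, B2m in the interaction became -0.0030 and Nlrc5 in all 5 dual ICI mice -0.37, and with upper-quartile scaling B2m after anti-PD1 became -0.00398. With 1 mouse left out, the log2 ranges after anti-PD1 were -0.097 to 0.071 for B2m, -0.22 to 0.0082 for H2-D1, -0.25 to 0.022 for H2-K1, -0.24 to 0.055 for Nlrc5, -0.22 to 0.059 for Psmb9 and -0.27 to 0.015 for Tap1. After anti-CTLA4 they were -0.13 to 0.14 for H2-K1, -0.045 to 0.22 for Nlrc5, -0.30 to 0.081 for Psmb8, -0.13 to 0.12 for Psmb9, -0.18 to 0.058 for Tap1 and -0.17 to 0.077 for Tap2. In all 5 dual ICI mice they were -0.33 to 0.071 for B2m, -0.42 to 0.30 for Nlrc5, -0.43 to 0.12 for Psmb9 and -0.51 to 0.12 for Tap1, and for Psmb10 in uncured mice -0.074 to 0.33. Log2 ratios after anti-CTLA4 ranged from -0.18 to 0.20 for Psmb10 to Psmb7 and from -0.020 to 0.43 for Psmb8 to Psmb5, and after anti-PD1 from -0.39 to 0.080 for Psmb8 to Psmb5 and from -0.11 to 0.23 for Psmb9 to Psmb6. The causes were not tested. With 2 uncured and 3 cured mice, the number of mice and not the depth limits precision, and the fits that left 1 uncured mouse assumed that it varied like the other groups.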

Other observations

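H2-Q2, a nonclassical class I gene of a family whose reads can be shared, was at 0.256, 0 and 0 CPM in the cured mice (5, 0 and 0 counts) and at 0.155 CPM in anti-PD1 mouse 5. In the 2 uncured mice it was at 12 and 16.8 CPM, and in untreated day 35 mice between 1.3 and 6.72 CPM.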
